A study of Mus musculus with 8 samples.

Results

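Mzb1, Fkbp2, Fkbp11, Ppib, Cnpy2, Cnpy3 and Sdf2, which encode folding cofactors and prolyl isomerases of the endoplasmic reticulum (ER), were followed in mouse plasmablasts with and without Jagn1. They are 7 of the 24413 gene symbols listed for each library and were chosen by name, with earlier results of these data known. All 7 passed the filter on low counts that left 9904 genes to test. The tested cells came from C57BL/6J mice of genotype Jagn1fl/fl Mb1Cre+ (the Jagn1 knockout, 4 libraries), and the control cells from Jagn1fl/fl mice without a listed Cre (4 libraries). Jagn1 encodes an ER membrane protein, and Mb1-Cre is expressed from Cd79a, a gene of the B lineage, so that deletion starts in B cell precursors. In both genotypes B220+ cells of the spleen grew with lipopolysaccharide (LPS, 25 µg/ml) for 4 days, and the CD22-CD138+ plasmablasts, dividing cells that secrete antibody, were sorted. The labels give 4 mice per genotype and do not say how libraries and mice correspond, and the effects of Cre and of Jagn1 loss cannot be told apart, since the controls list no Cre.

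An antibody-secreting cell folds its product in the ER, where BiP and GRP94 hold unfolded chains and cofactors speed single steps. Prolyl isomerases, which form the FKBP and cyclophilin families, turn the peptide bond before proline, a slow step in the folding of antibody domains. MZB1 works with BiP and GRP94 in B cells and plasma cells and aids antibody assembly and secretion. Canopy proteins are small soluble ER proteins, of which CNPY3 serves GRP94 in the folding of Toll-like receptors, while SDF2 joins the BiP cofactor ERdj3.

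Libraries held 7162089 to 8262474 counts in the knockout and 5882912 to 10066661 counts in the control. Jagn1 itself gave 1 or 2 counts in each knockout library and 16 to 99 counts in each control library, which fits the labels, and whether the 3′ end that the kit reads lies in the deleted part is not stated in the sources used here. Levels are given in CPM, the count divided by the normalised library total in units of 1e+06, and because the kit reads 1 tag per transcript end they were not divided by length. Control replicates 1 and 4 deviated most from their group, with root mean square log2 deviations of 0.594 and 0.581, where the other 6 libraries had 0.324 to 0.432. Differences were tested with edgeR's quasi-likelihood test and Benjamini-Hochberg adjustment over all 9904 genes, at a threshold of 0.05. Cd79a, from which the Cre is expressed, averaged 148 ± 23.5 CPM in the knockout and 304 ± 77.6 CPM in the control (SD, n = 4 each). Its groups did not overlap, and its log2 fold change was -1.04 (edgeR adjusted p = 0.00313). The cause was not tested.

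Among the 7 genes, Fkbp11 rose in the knockout, and no other gene passed the test. This is 1 of 7, where 5.74% of all tested genes were called (2.54% higher and 3.19% lower). Fkbp11 averaged 163 ± 20.2 CPM in the knockout and 88.4 ± 14.3 CPM in the control (SD, n = 4 each), a 1.84-fold difference. Fitted log2 fold changes of the 7 genes ran from -0.27 for Sdf2 to 0.88 for Fkbp11, with 5 of 7 above 0; their median was 0.14, and that of all tested genes -0.01. The groups did not overlap for Fkbp11 and overlapped for the other 6 genes, while 13.1% of all tested genes had groups that did not overlap. The count of 1 called gene held under all 17 alternatives, which include DESeq2, limma-voom and the omission of each library. RNA from a whole sorted population cannot show whether fewer cells with the transcript or less of it per cell underlies a difference in level.

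**Figure D1:**
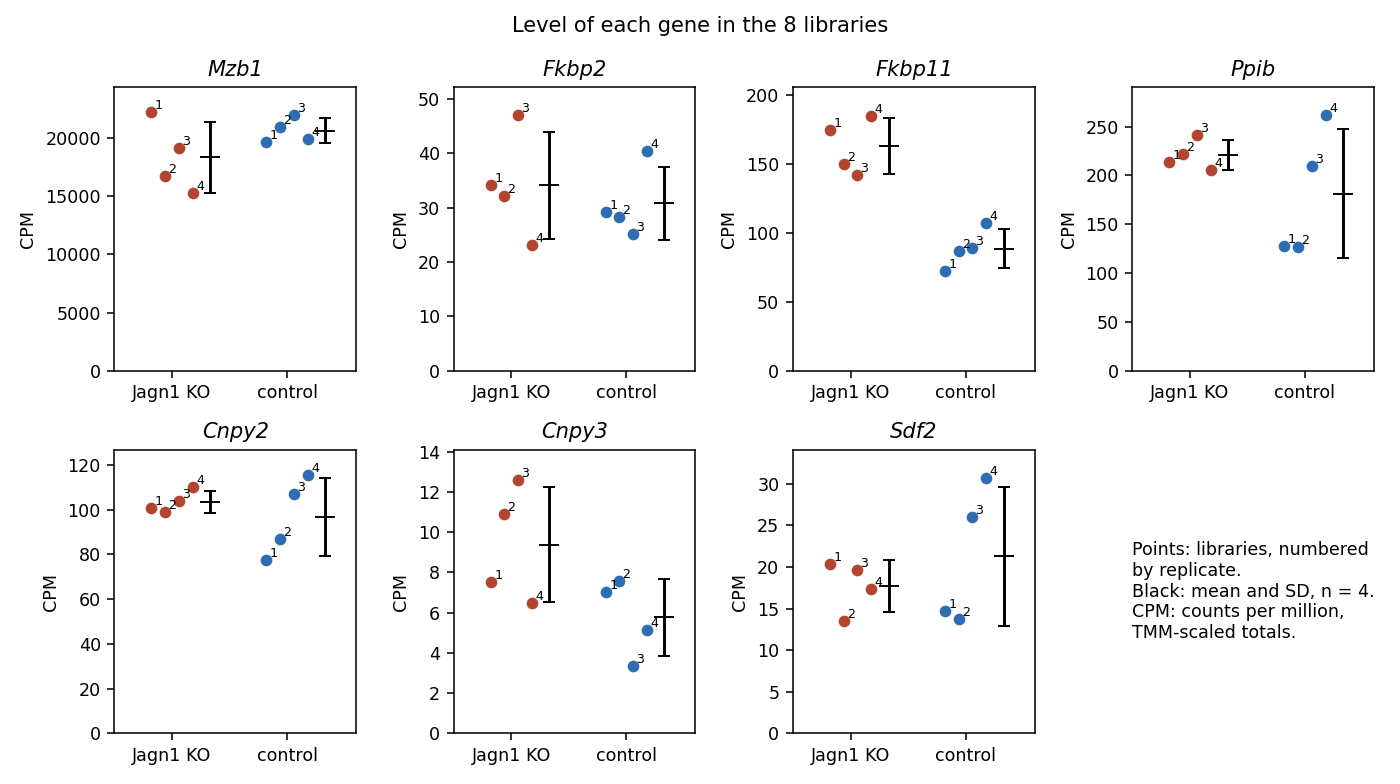
Level of each of the 7 genes in CPM (linear axis from 0) in the 4 Jagn1 knockout libraries (red, left) and the 4 control libraries (blue, right); numbers are replicates, black marks the mean and SD. The groups separate for Fkbp11, with 142 to 184 CPM in the knockout and 71.9 to 107 CPM in the control, and overlap for the other 6 genes.

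Some markers of the plasmablast itself moved with genotype. Of 10 plasmablast markers edgeR called 5 lower in the knockout and none higher, where 3.19% of all tested genes were called lower. The median log2 fold change of the 10 was -0.64, and DESeq2 and limma-voom called 6 each. The called markers were Sdc1, Cd93, Slamf7, Tnfrsf17 and Jchain. Their log2 fold changes were -1.07, -1.21, -0.98, -2.22 and -0.89 (edgeR adjusted p from 4.35e-05 to 0.0122). The summed level of the 10 was 9151 to 11631 CPM in knockout libraries and 13207 to 18314 CPM in control libraries. Most of it came from Jchain and Pou2af1. These averaged 4064.5 and 3977 CPM in the knockout and 7517 and 5230 CPM in the control. Prdm1, Xbp1, Irf4, Ell2 and Pou2af1 were not called (log2 fold changes -0.29, -0.39, -0.03, 0.04 and -0.40, edgeR adjusted p from 0.0692 to 0.959). Sdc1, which encodes the sorting marker CD138, was present at 19.6 ± 2.72 CPM in the knockout and 41.2 ± 10.8 CPM in the control (SD, n = 4 each). Cd22, the excluded marker, stood at 6.77 ± 2.06 CPM in the knockout and 6.83 ± 3.42 CPM in the control, and the summed level of 8 markers of undifferentiated B cells was 486 to 603 CPM in the knockout and 451 to 624 CPM in the control. The 9 T and NK cell markers summed to 8.66 to 11.4 CPM in the knockout and 11.6 to 20.5 CPM in the control, with Ncr1 and Gzma at 0, and the 9 myeloid markers to 3.36 to 5.53 CPM and 3.54 to 6.74 CPM in knockout and control libraries, with Lyz2, S100a8 and S100a9 at 0. Of 10 erythroid and platelet markers 8, among them all globin genes listed, were at 0 in every library. The part of the plasmablast markers in the results on the 7 genes was not tested.

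Fkbp11 encodes an ER isomerase of the FKBP family that is anchored in the membrane and abundant in secretory cells. The gene lies on chromosome 15 from 98724366 to 98728198 on the minus strand (GRCm38, GENCODE M21). Its level was 174, 150, 142 and 184 CPM in knockout replicates 1 to 4 and 71.9, 86.4, 88.6 and 107 CPM in control replicates 1 to 4. Every knockout library was above every control library, and the lowest knockout value, in replicate 3, exceeded the highest control value, in replicate 4. The log2 fold change was 0.88 ± 0.16 (SE; 95% interval 0.54 to 1.21), and edgeR gave an unadjusted p of 5.22e-05 and an adjusted p of 0.00334, the 155th smallest p of the 9904. It was 0.90 without control replicates 1 and 4 and 0.79 to 0.97 when single libraries were left out, with adjusted p values from 0.000535 to 0.0188. Each library held 512 to 1534 counts of this gene, so that counting error alone gives a coefficient of variation of 2.87% in the knockout and 3.93% in the control, below the 12.4% and 16.2% observed.

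**Figure D2:**
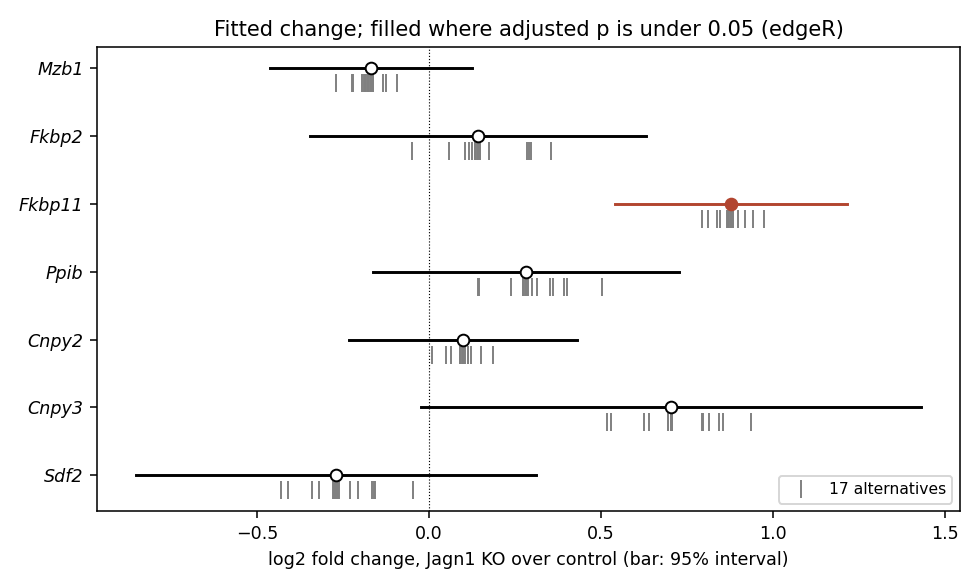
Fitted log2 fold change of Jagn1 knockout over control for each gene, with its 95% interval (bar) and the values under the alternative settings (grey ticks). The interval of Fkbp11 runs from 0.54 to 1.21 and excludes 0; the other 6 intervals include 0.

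Letters upstream of the start site are shown for Fkbp11, the gene that rose, for Cnpy2 and for Sdf2l1. Of the genes searched, Cnpy2 was the one whose letters held a searched motif. Sdf2l1 is the paralogue of Sdf2 whose level fell (values given with Sdf2). Mzb1 was left out of the search. Each sequence is the 250 bases before a transcript start, 5′ to 3′ on the gene's strand, from RefSeq (GRCm38.p6). Fkbp11 has another window, at 98727628 to 98727877 on chromosome 15, which is not printed. All 250 of its bases lie in exons of Fkbp11, and it held none of the searched motifs. Fkbp2 and Sdf2 also have additional windows. Capitals mark a match to the motif TGATGNAA, the core of the element bound by ATF4 with C/EBP proteins.
Fkbp11, chr15:98728199-98728448, minus strand: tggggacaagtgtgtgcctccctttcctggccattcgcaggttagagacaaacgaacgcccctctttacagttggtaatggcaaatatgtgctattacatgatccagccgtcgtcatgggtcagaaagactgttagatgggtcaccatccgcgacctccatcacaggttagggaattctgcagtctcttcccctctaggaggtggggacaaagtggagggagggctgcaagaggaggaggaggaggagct
Cnpy2, chr10:128322209-128322458, plus strand: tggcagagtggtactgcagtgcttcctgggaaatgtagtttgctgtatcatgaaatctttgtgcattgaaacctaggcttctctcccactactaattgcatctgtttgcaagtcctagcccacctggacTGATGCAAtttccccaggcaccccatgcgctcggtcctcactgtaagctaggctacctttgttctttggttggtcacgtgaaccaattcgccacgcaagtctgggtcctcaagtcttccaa
Sdf2l1, chr16:17132384-17132633, minus strand: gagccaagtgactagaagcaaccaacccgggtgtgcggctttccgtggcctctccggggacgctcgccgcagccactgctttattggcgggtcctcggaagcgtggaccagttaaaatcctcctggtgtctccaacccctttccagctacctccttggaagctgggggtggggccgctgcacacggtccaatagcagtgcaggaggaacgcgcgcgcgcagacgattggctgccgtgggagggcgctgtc
The Cnpy2 match begins 121 bases before the start and reads TGATGCAA. Windows of this length held TGATGNAA on either strand in 3.45% of 32851 RefSeq promoters. Another 2 motifs were searched on both strands in the same windows of Sdf2l1 and of the 6 genes other than Mzb1, and were not found there. One was the ER stress response element, CCAAT and CCACG held apart by 9 bases, which was in 0.113% of the promoters, and the other was the unfolded protein response element TGACGTGG, which was in 0.563%. The motifs do not overlap in the windows printed, a match is not shown to be a bound site, and no match says only that these letters are absent from this window.

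Ppib encodes cyclophilin B, the main cyclophilin of the ER lumen, which works there with calreticulin and disulfide isomerases. Its level was 214, 222, 242 and 205 CPM in knockout replicates 1 to 4 and 128, 127, 210 and 262 CPM in control replicates 1 to 4. Control replicates 1 and 2 were below all knockout libraries, control replicate 3 lay among them and control replicate 4 was above them. The coefficient of variation was 7.1% in the knockout and 36.4% in the control, with no test made of that difference in spread. The log2 fold change was 0.28 ± 0.21 (SE; edgeR adjusted p = 0.529; 95% interval -0.16 to 0.72). It was 0.50 without control replicate 4 (adjusted p = 0.0786), and 0.15 and 0.14 without control replicates 1 and 2. The gene is on chromosome 9 from 66060222 to 66066623 (plus strand) and shares 825 exon bases with Snx22 on the opposite strand, and whether counting used strand is not stated in the sources used here.

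Fkbp2 encodes a small soluble FKBP of the ER. It was at 34.1, 32.1, 47.1 and 23.1 CPM in knockout replicates 1 to 4 and at 29.2, 28.4, 25.1 and 40.5 CPM in control replicates 1 to 4. Knockout libraries held both the highest value (replicate 3) and the lowest (replicate 4). Between genotypes the log2 fold change was 0.14 ± 0.23 (SE; edgeR adjusted p = 0.815; 95% interval -0.35 to 0.63), and it was -0.05 without knockout replicate 3. Fkbp2 lies on chromosome 19 from 6977741 to 6980501 on the minus strand.

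Mzb1 had the highest level of all 9904 tested genes in both genotypes; no immunoglobulin constant or variable symbol is among those listed (0 found). Its level was 22219.6, 16764, 19157 and 15255 CPM in knockout replicates 1 to 4 and 19655, 20926.5, 21996 and 19912 CPM in control replicates 1 to 4. Knockout replicate 1 was above all control libraries and the other 3 knockout libraries were below them, so that the groups overlapped. The mean was 18349 CPM in the knockout and 20622 CPM in the control, with a coefficient of variation of 16.6% in the knockout and 5.18% in the control, where counting error gives 0.270% and 0.254%. Its log2 fold change of -0.17 ± 0.14 (SE) did not pass the test (edgeR adjusted p = 0.581), and its 95% interval ran from -0.46 to 0.12. Depth is not limiting here, with 116592 to 204474 counts per library, and the interval leaves out a change of 2-fold in either direction. The gene lies on chromosome 18 from 35647267 to 35649367, and 695 bases of its exons also belong to SPATA24 on the same strand in GENCODE M21, so the assignment of reads there is uncertain.

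Jchain encodes the joining chain of secreted IgM. It was the gene edgeR called among 5 tested genes listed as antibody assembly clients and partners (DESeq2 and limma-voom called 2 each). The list also held Vpreb1 and the integrin genes Itgb1, Itgal and Itgb7, and integrins are not part of an antibody. Jchain fell to 3400, 3318, 5473 and 4066 CPM in knockout replicates 1 to 4, against 5758, 6430, 10015 and 7866 CPM in control replicates 1 to 4. Knockout replicate 3 was the nearest to the control libraries, and the groups did not overlap. The log2 fold change was -0.89 ± 0.19 (SE; edgeR adjusted p = 0.0122), and the call was lost without knockout replicate 1 (0.0625), knockout replicate 2 (0.0713) or control replicate 3 (0.0594). Whether Jchain and Mzb1 differed from each other in response was not tested.

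Cnpy2, a canopy protein reported in mouse cells to switch on the stress sensor PERK, had the smallest fitted change of the 7 genes. Its level was 101, 98.9, 104 and 110 CPM in knockout replicates 1 to 4 and 77.7, 86.7, 107 and 115 CPM in control replicates 1 to 4. All knockout libraries lay within the range of the control libraries. Its fitted log2 fold change was 0.10 ± 0.16 (SE; edgeR adjusted p = 0.814), and the 95% interval of -0.23 to 0.43 lies within a 1.5-fold change in either direction. On chromosome 10 the gene runs from 128322459 to 128327553 (plus strand).

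Cnpy3, the partner of GRP94 for Toll-like receptors, had the lowest level of the 7 genes and the second largest fitted change. Its counts were 56, 76, 96 and 54 in knockout replicates 1 to 4 and 50, 47, 24 and 53 in control replicates 1 to 4. In CPM these were 7.52, 10.9, 12.6 and 6.49 in the knockout and 7.02, 7.57, 3.34 and 5.16 in the control. Knockout replicates 2 and 3 were above all control libraries, and knockout replicates 1 and 4 lay within the control range. A log2 fold change of 0.70 ± 0.34 (SE) had an unadjusted p of 0.0569 and an adjusted p of 0.294 in edgeR's test, with a 95% interval of -0.02 to 1.43. At this depth counting error alone gives a coefficient of variation of 12.2% in the knockout and 15.7% in the control, below the 30.5% and 33.3% observed. The gene spans chromosome 17 from 46735705 to 46752214 on the minus strand.

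Sdf2 encodes an ER protein with repeats like those of protein O-mannosyltransferases. It was at 20.4, 13.5, 19.7 and 17.3 CPM in knockout replicates 1 to 4 and at 14.7, 13.7, 26.0 and 30.7 CPM in control replicates 1 to 4. Control replicates 3 and 4 were above all knockout libraries, and control replicates 1 and 2 lay in the lower part of the knockout range. The log2 fold change was -0.27 ± 0.27 (SE; edgeR adjusted p = 0.674; 95% interval -0.85 to 0.31), and it was -0.05 without control replicate 4. Sdf2 runs from 78245746 to 78255496 on chromosome 11 (plus strand) and shares 242 exon bases with Supt6 on the opposite strand. Its paralogue Sdf2l1, the stress-induced form of the protein, fell to 91.0, 94.2, 115 and 98.0 CPM in knockout replicates 1 to 4, against 198, 165, 187 and 168 CPM in control replicates 1 to 4. The groups of Sdf2l1 did not overlap, and its log2 fold change was -0.85 ± 0.14 (SE; edgeR adjusted p = 0.00159).

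The 7 genes spanned a wide range of levels, and part of their order held in both genotypes. Mzb1 was followed by Ppib, and Cnpy3 was the lowest, below Sdf2 in every library. In the knockout Fkbp11 lay above Cnpy2 without overlap (142 to 184 and 98.9 to 110 CPM), whereas in the control their ranges overlapped (71.9 to 107 and 77.7 to 115 CPM). Fkbp2 was above Sdf2 without overlap in the knockout (23.1 to 47.1 and 13.5 to 20.4 CPM), and their control ranges overlapped (25.1 to 40.5 and 13.7 to 30.7 CPM). By mean CPM, Fkbp11 ranked 948 of 9904 tested genes in the knockout and 1781 in the control, and Cnpy3 ranked 6614 and 7624. The 6 genes other than Mzb1 summed to 527 to 567 CPM in the knockout libraries and 328 to 560 CPM in the control libraries, of which control replicate 1 was the lowest and control replicate 4 the highest.

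The coefficient of variation was larger in the control for 5 of the 7 genes, most of all for Ppib, Cnpy2 (4.72% in the knockout and 18.1% in the control) and Sdf2 (17.5% in the knockout and 39.4% in the control). It was larger in the knockout for Mzb1 and Fkbp2. Control libraries also deviated more over all tested genes, with root mean square log2 deviations of 0.407 to 0.594, against 0.324 to 0.388 in the knockout. A larger spread in the control is therefore not shown to be particular to the 7 genes. Ppib, Cnpy2 and Sdf2 were below the control mean in replicates 1 and 2 and above it in replicates 3 and 4, by up to 0.61 on the log2 scale, in Sdf2 in control replicate 4. Fkbp11 had the same signs, at -0.28, -0.02, 0.02 and 0.29 in control replicates 1 to 4. Cnpy3 went the other way in these libraries, 0.33 and 0.44 above the mean in control replicates 1 and 2 and 0.68 below it in control replicate 3 (-0.68). Mzb1 deviated by at most 0.09 in the control on this scale. The median deviation of the 7 genes was -0.28 in control replicate 1 and 0.29 in control replicate 4, where that of all tested genes was 0.00 and 0.01.

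**Figure D3:**
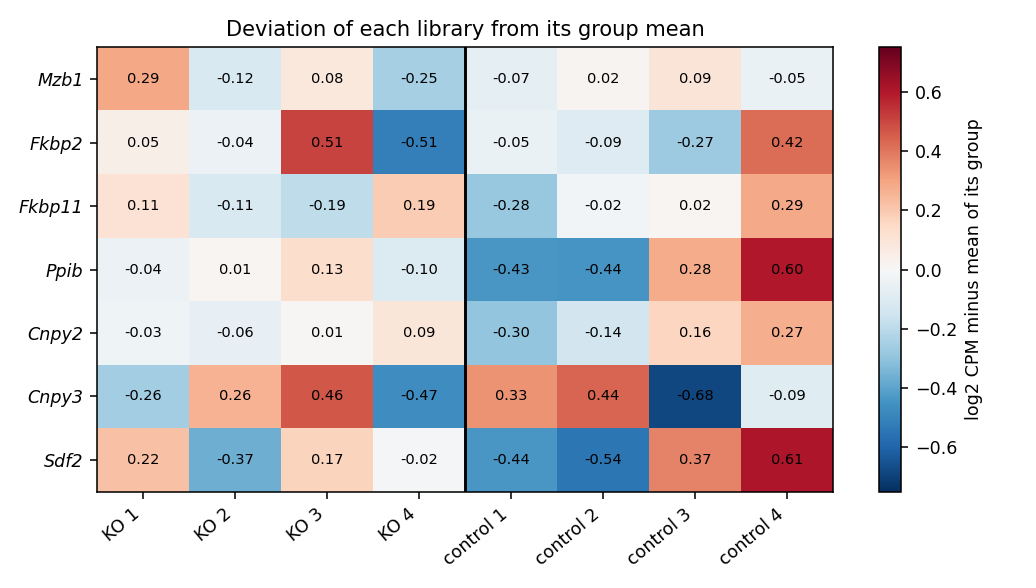
Difference between each library's log2 CPM and the mean of its genotype, for each gene (rows) in the knockout libraries (left of the line) and control libraries (right of it); red is above and blue below the mean. Control replicates 1 and 2 are low and control replicates 3 and 4 high for Ppib, Cnpy2 and Sdf2, and the reverse holds for Cnpy3. Fkbp11 has the signs of Ppib, with -0.02 and 0.02 in control replicates 2 and 3.

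Ratios of 2 genes within a library do not depend on how libraries are scaled, and 4 were compared by an exact two-sided permutation test of the mean log2 ratio, whose smallest possible p is 0.0286 with 4 libraries a group. The ratio of Ppib to Ppia, the ER to the cytosolic cyclophilin gene, was higher in every knockout library than in any control library. Its log2 value was -0.06 ± 0.17 in the knockout and -0.65 ± 0.24 in the control (SD, n = 4 each), a difference of 0.59. The exact permutation p was 0.0286, which is 0.114 after adjustment over the 4 ratios and does not pass. A ratio that alone reaches the smallest possible p cannot pass after this adjustment, so the failure does not show that the ratio was unchanged. Ppia alone averaged 231 ± 26.2 CPM in the knockout and 284 ± 105 CPM in the control (SD, n = 4 each; edgeR adjusted p = 0.506), and its many processed pseudogene copies make its counts uncertain. The log2 ratio of Fkbp11 to Fkbp2 was 2.29 ± 0.58 in the knockout and 1.53 ± 0.23 in the control (SD, n = 4 each, exact permutation p = 0.0857, adjusted 0.171), so a difference between the 2 isomerase genes was not detectable beyond the spread between libraries. That of Sdf2 to Sdf2l1 was -2.50 ± 0.26 in the knockout and -3.16 ± 0.61 in the control (exact permutation p = 0.143, adjusted 0.190), and that of Cnpy2 to Cnpy3 was 3.5 ± 0.48 and 4.10 ± 0.75 in knockout and control libraries (p = 0.229 before and after adjustment). The changes of Fkbp11 and Sdf2l1 were known when these pairs were chosen.

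**Figure D4:**
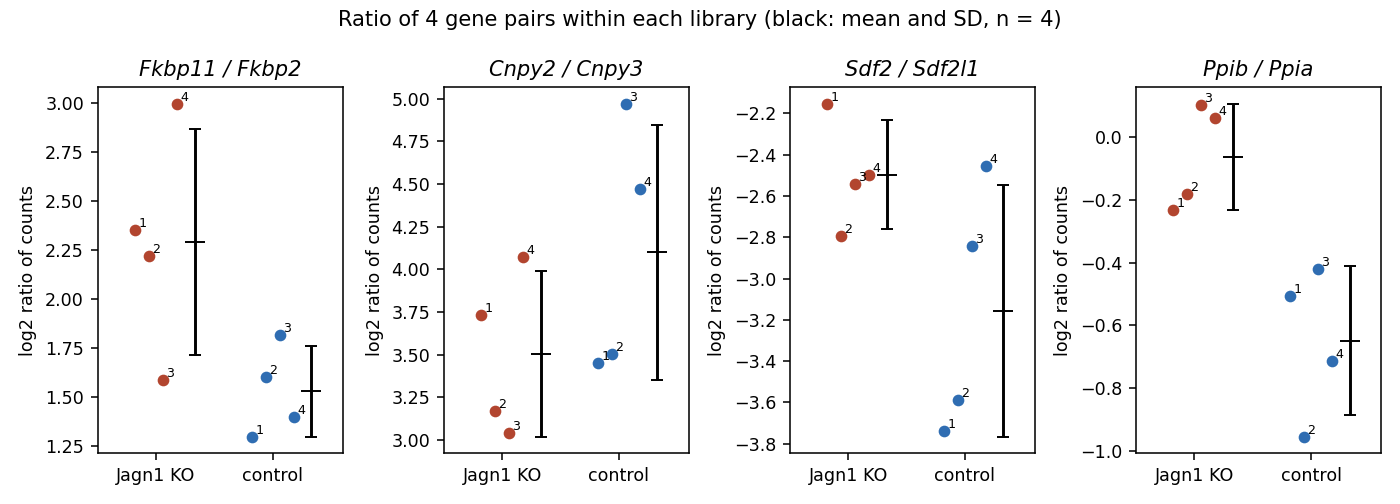
Log2 ratio of counts of 2 genes within each library for 4 gene pairs, in Jagn1 knockout (red, left) and control libraries (blue, right); numbers are replicates, black marks the mean and SD. The ranges separate for Ppib over Ppia and overlap for the other 3 pairs.

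Relatives of the isomerases stayed mostly short of the threshold. Of 9 other FKBP genes tested none was called by edgeR, DESeq2 or limma-voom, and 1 had an unadjusted p under 0.05 (18% of all tested genes did), Fkbp7, an ER isomerase gene. Fkbp7 had 2.52 ± 0.803 CPM in the knockout and 5.31 ± 3.12 CPM in the control (SD, n = 4 each; log2 fold change -1.07, edgeR adjusted p = 0.261). Of 16 other cyclophilin and parvulin genes edgeR called 1 higher and none lower, with a median log2 fold change of 0.01; 4 had an unadjusted p under 0.05, and DESeq2 and limma-voom called 2 each. That gene was Ppig, a nuclear cyclophilin linked to splicing factors, at 376 ± 74.9 CPM in the knockout and 243 ± 43.9 CPM in the control (SD, n = 4 each; edgeR adjusted p = 0.0421). The groups of Ppig overlapped, its call was lost when any of 6 single libraries was left out (adjusted p up to 0.149), and it had an adjusted p of 0.0838 with the replicate number as a block. Ppil1, a cyclophilin of the spliceosome named here after its values were seen, was at 97.6 ± 3.73 CPM in the knockout and 132 ± 17.9 CPM in the control (SD, n = 4 each), without overlap, and did not pass (log2 fold change -0.43, edgeR adjusted p = 0.0988). The canopy and SDF2 relatives held 4 tested genes, of which edgeR and DESeq2 called 1 and limma-voom 2. By edgeR, Sdf2l1 was lower and none was higher. Pomt2, an ER O-mannosyltransferase gene also named after its values were seen, was at 19.8 ± 3.73 CPM in the knockout and 11.6 ± 3.39 CPM in the control (SD, n = 4 each; log2 fold change 0.76, edgeR adjusted p = 0.105). Cnpy4, the third canopy gene tested, was at 23.8 ± 8.14 CPM in the knockout and 30.6 ± 10.1 CPM in the control (SD, n = 4 each; edgeR adjusted p = 0.545).

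Of 13 ER chaperone partners, which work with these cofactors, edgeR called 1 higher and none lower, with a median log2 fold change of -0.07 (DESeq2 called 1 and limma-voom 2). Fitted log2 fold changes of the uncalled partners ran from -0.60 for Erp44, which retains unassembled chains by thiol bonds, to 0.40 for Hyou1, an exchange factor of BiP (edgeR adjusted p = 0.449 and 0.261). Hspa5 (BiP) was at 15593 ± 1422 CPM in the knockout and 13429 ± 1679 CPM in the control, and Hsp90b1 (GRP94) at 6564 ± 816 and 6749 ± 1029 CPM in knockout and control libraries (SD, n = 4 each; edgeR adjusted p = 0.438 and 0.929), and these partners were named after their values were seen. Serpinh1, which encodes the collagen chaperone HSP47, was at 14.9, 24.3, 21.4 and 21.04 CPM in knockout replicates 1 to 4 and at 2.11, 3.87, 3.20 and 7.30 CPM in control replicates 1 to 4. All knockout libraries were above all control libraries, by a log2 fold change of 2.28 ± 0.34 (SE; edgeR adjusted p = 0.000792). Of 16 genes of Toll-like receptors and their cofactors, which include the clients of CNPY3, 8 were tested and none was called by edgeR. Of the 8, 3 had an unadjusted p under 0.05 in edgeR's test, where 18% of all tested genes did. DESeq2 called 1 and limma-voom 2. Tlr7 had the smallest p, with 5.53 ± 1.40 CPM in the knockout and 11.5 ± 4.25 CPM in the control (SD, n = 4 each; log2 fold change -1.05, edgeR adjusted p = 0.0741). Tlr4, the LPS receptor and also among the 3, named after its values were seen, went the other way, at 5.66 ± 0.837 CPM in the knockout and 2.34 ± 2.24 CPM in the control, where replicate 4 lay within the knockout range (log2 fold change 1.23, edgeR adjusted p = 0.234). Cd180, also among the 3 and named after its values were seen, was the 1 tested gene of this list whose groups did not overlap. It averaged 19.8 ± 5.06 CPM in the knockout and 32.2 ± 9.40 CPM in the control (SD, n = 4 each). Its log2 fold change was -0.70 (edgeR adjusted p = 0.117). Of 6 genes listed for the PERK branch, to which CNPY2 has been tied, edgeR called 3 higher and none lower. DESeq2 and limma-voom called 4 each. Of all tested genes 2.54% were called higher. Trib3, Ddit3 and Ppp1r15a were called, with log2 fold changes of 2.66, 1.54 and 0.93 (edgeR adjusted p = 0.000121, 0.00116 and 0.00577). Eif2ak3, which encodes PERK, and Atf4 were not called (log2 fold changes 0.09 and 0.72, edgeR adjusted p = 0.881 and 0.0787). Mylip, listed here but not a PERK branch gene, was not called either (-0.70, edgeR adjusted p = 0.631). The uncalled genes were named after their values were seen, and PERK activity was not tested. A second, overlapping annotation of Ddit3 shares 105 exon bases with the main one.

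**Figure D5:**
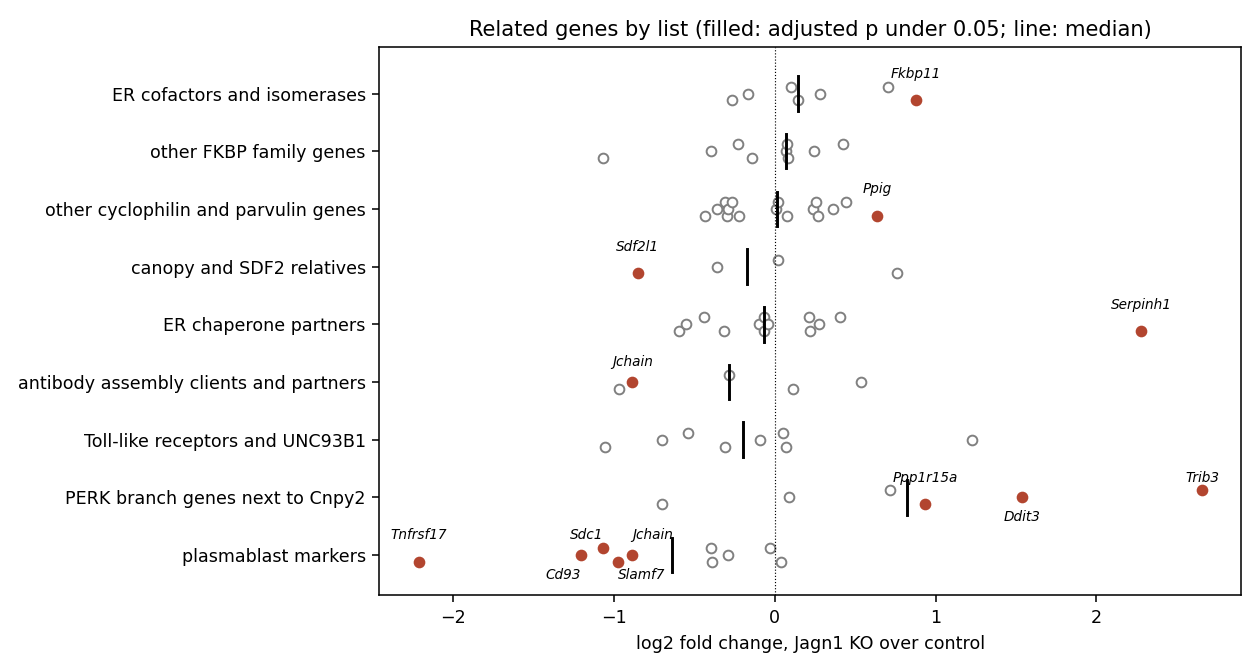
Log2 fold change of Jagn1 knockout over control for the 7 genes and for related genes, by list (1 circle a gene; filled where edgeR's adjusted p is under 0.05, black line at the list's median). Called genes are labelled, and the list medians run from -0.64 for plasmablast markers to 0.82 for the PERK branch list, which includes Mylip.

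For each of the 7 genes, the 2 tested genes with the most similar profile over the 8 libraries were found by the root mean square difference of mean-centred log2 CPM, among 8135 candidates. Nearest to Fkbp11 were Taf15 (0.0892) and Uqcrq (0.118), which encode an RNA-binding protein and a subunit of respiratory complex III, with log2 fold changes of 0.79 and 0.82 (edgeR adjusted p = 0.0104 and 0.00348). Nearest to Mzb1 were Cirh1a (0.0777) and Slc39a1 (0.0811), and to Cnpy2 Jtb (0.0513) and Smap2 (0.0627). Ppib was closest to Tmem126a (0.0846) and Sumo2 (0.0901), and Fkbp2 to Zfp703 (0.1) and Atg5 (0.128). Cnpy3 was closest to Irak3 (0.114) and Ick (0.221), and Sdf2 to Arhgap15 (0.157) and Tmem9b (0.161). None of the 7 genes was among another's 2 nearest, which says little with 8135 candidates. The libraries share depth and scaling in these profiles, and the distances are a description without a test.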

How the data were processed

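Messenger RNA was measured in 8 libraries, 4 Jagn1 knockout and 4 control, grouped by sample title. Per the labels' protocols, the authors made QuantSeq 3′ mRNA-Seq (FWD) libraries from Trizol-extracted RNA of sorted plasmablasts. The deposited files hold raw read counts per gene symbol. The submitters' processing notes name TopHat2 2.1.1, BWA 0.7.12, HTSeq 0.6.1, SAMtools 1.3.1 and mm10, without their roles, and annotation and strand setting are not stated. Molecular identifiers are not mentioned, so counts may include PCR copies.

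Totals ran from 5882912 to 10066661 counts. After filterByExpr (at least 10 counts, total 15) and TMM scaling, genotypes were compared by the robust quasi-likelihood F-test of edgeR 4.0.16 under R 4.3.3 (group only, two-sided) and adjusted over all 9904 genes tested. Standard errors were derived from the fold change and F. Log2 CPM used a prior count of 2, and ratios a pseudocount of 0.5 counts. The steps were tested on simulated counts. Replicates all differed by more than sampling noise (chi-square per degree of freedom 6.6 to 94.2). Coordinates are from GENCODE M21 (GRCm38). It matched 20 of 20 symbols, which are the 7 genes, the related genes named by rule, Jagn1 and Cd79a.

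Alternatives were DESeq2 1.42.0, limma-voom (limma 3.58.1) with sample weights, other scalings and count filters, no robust estimation, a replicate block, and omission of libraries. By rule, up to 4 called genes of each related list with the smallest p were named. Where none was called, the 1 gene with the smallest p was named. Paralogues of the 7 genes were also named. Genes named after their values were seen are marked so in the text, and cell type markers have their own lists. Profile neighbours exclude predicted genes and an average log2 CPM under 2. The 7 genes, the lists and the gene pairs were chosen with earlier results of these data known. The labels do not tie libraries to single mice, so p-values measure the spread between libraries.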

Additional observations from a re-analysis of the deposited data

Results flagged for a closer look

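In each group of 4 libraries a value was singled out when its gap to the nearest library, divided by the group's range, exceeded Dixon's 95% critical value, which chance does in about 1 of 20 groups; 2 of the 48 groups checked met it. Tlr7 stood at 7.62 CPM in knockout replicate 2, against 4.69 to 5.10 CPM in the other knockout libraries. Jagn1 stood at 0.269 CPM in knockout replicate 1, which is 2 counts, against 0.12 to 0.144 CPM (1 count each) in the other knockout libraries. None of the 7 ER cofactor genes and none of the 4 ratios was singled out.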

How the results depend on the processing

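Fkbp11 kept its direction and its call in all 17 alternatives run, with log2 fold changes from 0.79 to 0.97, and Mzb1, Ppib, Cnpy2, Cnpy3 and Sdf2 kept their direction and stayed uncalled in all 17. Fkbp2 stayed uncalled in all 17 and changed direction in 1, at -0.051 without knockout replicate 3; over single-library omissions it ran from -0.05 to 0.30, and the cause was not tested. The 4 ratios kept their direction in all 11 alternatives and none passed. Their adjusted p ran from 0.0571 to 0.486 when single libraries were left out, where the smallest unadjusted p possible is 0.0286. A ratio that alone reaches this p cannot pass after adjustment over the 4 ratios, so these failures say little. With control replicates 1 and 4 left out together, or with the block, the smallest possible p is 0.0667 and 0.125, so those repeats say nothing of stability.

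The number of genes called over the whole table, 568, was 858 with DESeq2, 1070 with limma-voom, 901 without control replicates 1 and 4 together, and 270 to 892 when single libraries were left out (892 without control replicate 4 and 270 without knockout replicate 2). The causes were not tested. With the replicate number as a block it was 509. The titles share replicate numbers between genotypes, but same-numbered libraries did not deviate together (correlations of -0.00342 to 0.0662 over tested genes). Not every library correlated best with its own number, so the numbers were not taken as pairs. Among the genes whose test is given with the block, it ended the call of Ppig alone, and it ended none of the 7. Profile neighbours, genes named after their values were seen and plasmablast markers other than Jchain are not among these genes. Tlr7 passed under 5 of 17 alternatives (adjusted p down to 0.00905 without control replicates 1 and 4). Jagn1 and Fkbp7 were not tested at a minimum count of 50. Fkbp11, Mzb1, Ppib and Cnpy2 rest on at least 512 counts in every library, and Cnpy3 on 24 to 96.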
